A study of Mus musculus with 8 samples.

Results

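The microglia and macrophage marker genes examined here were *Aif1*, *Cd68*, *Itgam*, *Cx3cr1*, *Csf1r*, *Tyrobp*, *Trem2*, *P2ry12*, *Spp1* and *Cd14*. They were chosen by name, and every probe carrying one of the 10 names was used, which gave 16 probes of the 41174 on the array and 10 of its 27962 gene names. Where a gene had several probes, as 5 of the 10 did, the probe with the highest mean signal was taken as its lead probe. Each of the 10 lead probes was well above background in all 16 channels, and no member probe was saturated.

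Microglia are the resident macrophages of the brain, and after an arterial occlusion they share the injured tissue with monocytes and neutrophils that enter from the blood. In the healthy brain they carry receptors that sense their surroundings, among them the ADP receptor P2ry12, the fractalkine receptor Cx3cr1 and Csf1r, the receptor for the survival factors Csf1 and Il34. Activated microglia and macrophages produce lysosomal proteins such as Cd68 and secreted proteins such as osteopontin (Spp1). Several of the markers, including *Itgam*, *Tyrobp* and *Cd14*, are also expressed by blood monocytes and neutrophils, so a whole hemisphere does not tell these cells apart.

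The mRNA came from the ipsilateral hemisphere of male C57BL/6J mice of 8 to 12 weeks. The mice had undergone either permanent middle cerebral artery occlusion (PMCAO) by an intraluminal filament or a sham operation. They then received 1 μL of 0.9% saline or of saline with 1 pmol of the neuropeptide PACAP38 into the cerebral ventricle, and tissue was taken at 6 h or 24 h. Surgery, injection and time made 8 groups, each represented by a single RNA pool of 3 mice with 300 ng from each. The PMCAO mice were selected by neurological grade and the sham mice at random. Every array held the saline and the PACAP38 pool of the same surgery and time in different dyes, and a second array held the same RNA with the dyes exchanged. The 2 arrays of a comparison were therefore 1 replicate, and each pool was measured once in Cy3 (green) and once in Cy5 (red). In such tissue pools, fewer cells of a type and less RNA per cell cannot be told apart.

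Levels are given as log2 of the processed signal minus the 75th percentile of its channel, so that 0 is the 75th percentile. A level compares pools for 1 probe and does not compare genes. Between 62.1% and 76.0% of the spots of an array were well above background. As a check of the tissue, all 10 neuronal marker genes examined, such as *Snap25*, were well above background in all 16 channels.

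The sham array of 6 h numbered 2 (PACAP38 in Cy3) stood apart, with 10.7% of its spots marked as outliers against 0.323% to 3.09% on the other arrays. On it *Cd68* of the sham saline pool read −2.58, whereas the other array of the same RNA read −1.27. The lead probes of *Itgam* and *Csf1r* were marked on it in both channels, and that of *P2ry12* in Cy3. The results of the members at 6 h are therefore given with all arrays and with the arrays numbered 1 alone. By the file headers, the arrays of each time point lay on their own slide and were read by different scanners, so time and slide cannot be told apart.

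PMCAO was compared with sham within each time point. The main test was a limma fit over the 8 pools, in which the saline and the PACAP38 pool stood as the 2 replicates of a surgery and time. Its adjusted p-values are Benjamini-Hochberg values over 28251 probes with a threshold of 0.05. Since those 2 pools shared their arrays, this spread leaves out the variation between arrays. The fit shares its PACAP38 term among all groups, so a PACAP38 difference particular to a surgery and time counts as spread. The fit called 64.3% of all probes at 6 h and 6.87% at 24 h (4904 probes in place of 1941 with the array number as a replicate block). A fit with the array as the unit, in which the 2 replicates were hybridizations of the same RNA, called 0 probes at 6 h (17.3% had an unadjusted p under 0.05) and 0.307% at 24 h. Both values are given for the members, and the second is named as the array fit.

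At 24 h after PMCAO the members did not move as a block. The signals of *Cd14*, *Spp1* and *Cd68* were higher in the ischemic hemisphere, that of *P2ry12* was lower, and the other tested genes lay between −0.61 and 0.21 on the log2 scale. Of the 8 lead probes that could be tested, 2 were called higher (*Cd68* and *Spp1*) and 1 lower (*P2ry12*). Across all probes 4.19% were called higher and 2.68% lower. Their median difference was −0.08 on the log2 scale against −0.02 over all probes. In the array fit 0 of 7 lead probes were called, 4 having an unadjusted p under 0.05 (6.02% of all probes). When the 24 h pools were fitted alone, 0 of 10 lead probes were called and 8 had an unadjusted p under 0.05, against 0.132% and 31.7% of all probes.

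*Spp1* encodes osteopontin, a secreted glycoprotein that binds integrins and Cd44. In sham at 24 h its level was 2.39 in the saline pool and 2.27 in the PACAP38 pool, and in PMCAO it was 5.09 and 3.60. The PMCAO pools thus lay above both sham pools, by 6.48-fold among the saline pools and by 2.52-fold among the PACAP38 pools. The mean difference was 2.01 ± 0.40 on the log2 scale (SE, 2 pools per group), or 4.04-fold, with an adjusted p of 0.0487 in limma and of 0.0643 in the array fit. The 4 same-dye differences lay between 1.31 and 2.77. This call rested on the threshold. It was lost when any sham pool or any 6 h pool was left out, with adjusted p-values from 0.0708 to 0.297, and also with quantile normalization (0.0576).

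*Cd68*, a glycoprotein of lysosomes in phagocytes, had levels of −1.23 and −1.13 in the saline and PACAP38 pools of sham at 24 h, and of −0.01 and −0.17 in those of PMCAO. The pools did not overlap, and the difference was similar on either side, 2.33-fold among the saline pools and 1.94-fold among the PACAP38 pools. Its mean was 1.09 ± 0.11 (SE), or 2.13-fold, with an adjusted p of 0.0141 in limma and of 0.75 in the array fit. The call was lost without the sham saline (0.120), the sham PACAP38 (0.0714) or the PMCAO saline pool (0.0719) of 24 h.

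The ADP receptor gene *P2ry12*, a marker of resting microglia, went the other way. Its levels at 24 h were −0.79 (saline) and −0.83 (PACAP38) in sham, and −2.68 and −2.25 in PMCAO. Both PMCAO pools lay below both sham pools, at 0.269-fold among the saline pools and 0.374-fold among the PACAP38 pools. The mean difference was −1.65 ± 0.17 (SE), or 0.318-fold, with an adjusted p of 0.0211 in limma over 7 pools, the sham PACAP38 pool of 6 h having no value. The gene had no value in the array fit, because of the outlier mark at 6 h, and its adjusted p was 0.0705 when the 24 h pools were fitted alone. Without the sham saline, the sham PACAP38 or the PMCAO saline pool of 24 h the adjusted p was 0.167, 0.106 and 0.0547.

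*Cd14*, the co-receptor that hands bacterial lipopolysaccharide to Tlr4, had the largest difference among the lead probes. In sham at 24 h its level was −1.79 (saline) and −1.71 (PACAP38), and in PMCAO it was 2.35 and 0.09. Its saline pools differed by 17.6-fold and its PACAP38 pools by 3.47-fold. The mean was 2.97 ± 0.68 (SE), or 7.81-fold, with an adjusted p of 0.0635 in limma and of 0.138 in the array fit, so it did not pass the test. The SE in limma includes this gap between saline and PACAP38 pools. The same-dye differences were 4.17 and 4.10 among the saline pools, and 1.84 and 1.75 among the PACAP38 pools. In a fit over the 16 channels with the array number as a replicate block, its adjusted p was 0.00140. The 2 channels of a pool held the same RNA (consensus correlation −0.614), so that fit added no replicate pools. With each of the 8 pools left out in turn, the mean difference lay between 1.69 and 4.25. Leaving out either PMCAO pool of 24 h removed the gap between these pools from the spread, so such fits could not test *Cd14*.

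Of the other members, *Aif1*, *Trem2* and *Cx3cr1* had negative differences at 24 h that did not pass the main test. *Aif1*, which encodes the actin-binding protein Iba1, was at 1.11 and 1.37 in sham and at 0.69 and 0.57 in PMCAO (mean difference −0.61 ± 0.14, SE, 0.657-fold, adjusted p = 0.0627 in limma), and its pools did not overlap. Its second probe differed by −0.69 (adjusted p = 0.0893). *Trem2*, a lipid-sensing receptor of microglia, was at 2.33 and 2.38 in sham and at 2.06 and 1.85 in PMCAO (−0.40 ± 0.10, SE, adjusted p = 0.0688). With the array number as a replicate block the lead probe of *Aif1* and that of *Trem2* passed the threshold in limma (adjusted p = 0.00166 and 0.00555). In the array fit they did not (0.657 and 0.99992). *Cx3cr1* differed by −0.38 ± 0.12 (SE, adjusted p = 0.117 in limma and 0.99992 in the array fit), but its second probe by 0.04 (0.925 in limma).

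The lead probes of *Csf1r* and *Itgam* were outside the fit and are given as values. *Csf1r* was at 1.86 in both sham pools and at 1.44 and 1.37 in the PMCAO pools, which lay below. Its middle and dim probes differed by −0.16 and −0.12 (adjusted p = 0.630 and 0.495 in limma). The second probes of *Trem2* and *Itgam* differed by −0.28 and −0.25 (0.164 and 0.514). *Itgam*, the alpha chain of the integrin CD11b/CD18, was at −2.67 (saline) and −2.46 (PACAP38) in sham and at −2.42 and −3.10 in PMCAO, so its saline pool was highest, its PACAP38 pool lowest, and the groups overlapped. *Tyrobp*, the adaptor through which Trem2 signals, overlapped too, with 1.26 and 1.41 in sham and 1.77 and 1.33 in PMCAO. Of all probes, 67.5% had PMCAO and sham pools that did not overlap at 24 h, against 7 of the 8 tested lead probes.

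**Figure D1:**
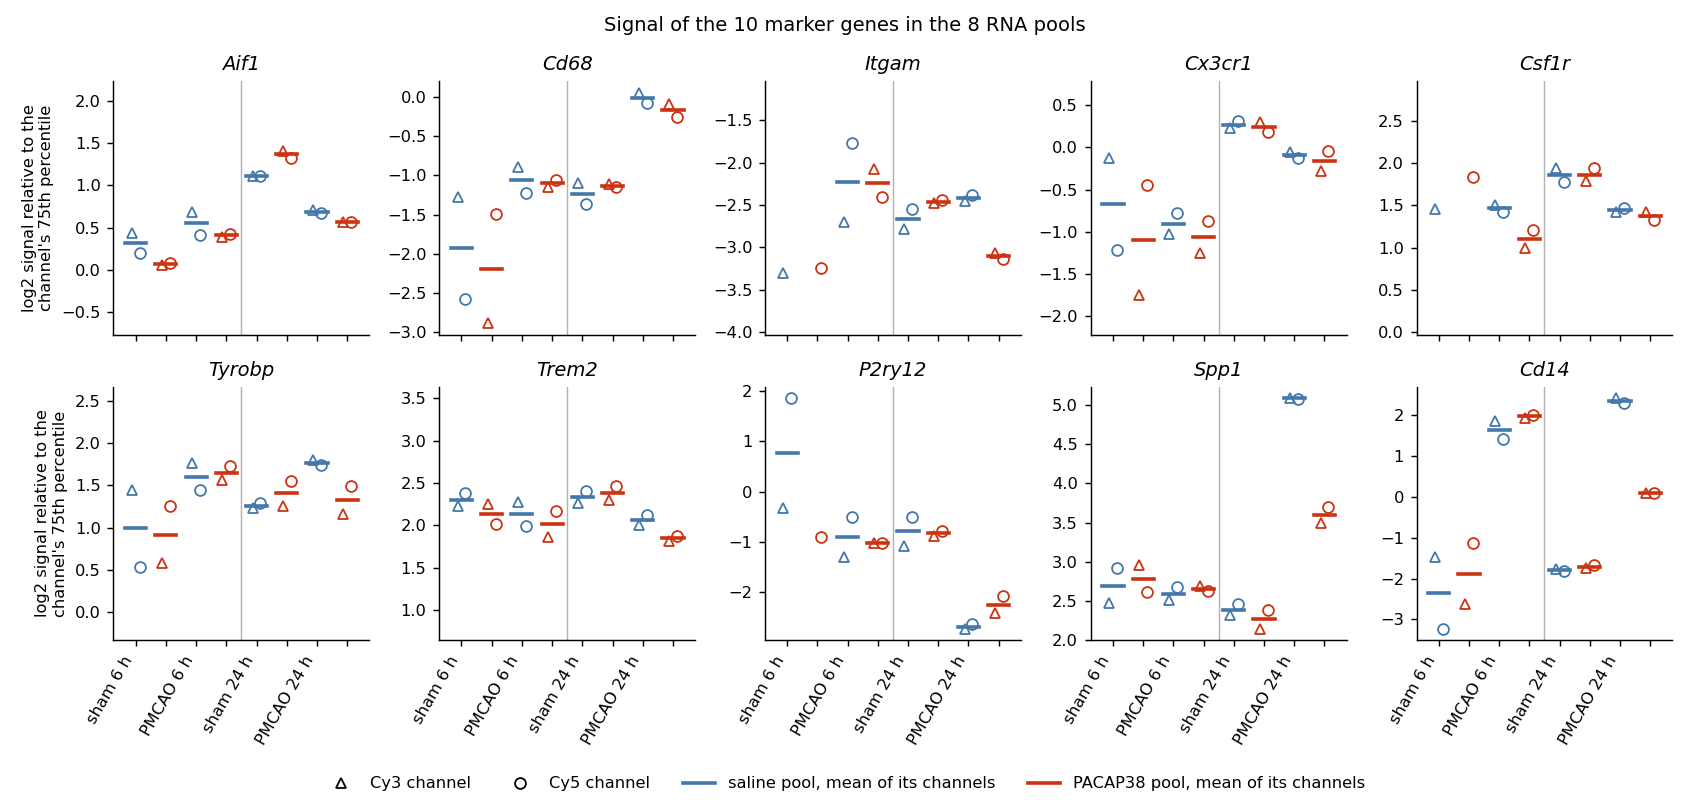
Signal of the lead probe of each of the 10 marker genes in the 8 pools, as log2 relative to the channel's 75th percentile; each tick covers the saline pool (blue, labelled) and the PACAP38 pool (red) to its right, with the Cy3 (triangle) and Cy5 (circle) channels and their mean (bar), and each panel has its own vertical scale. The channels of a pool lie close together at 24 h, where *Spp1* reaches 5.09 in the PMCAO saline pool, and far apart in the sham pools of 6 h for *Cd68*, *Cx3cr1* and *Cd14*.

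The promoters of the 3 genes called at 24 h are shown because these genes carried the test results. The set of RefSeq start sites used here, on GRCm38.p6, held 7 of the 10 members, and the 250 bases before the start are printed 5′ to 3′ on the strand of the gene. Capitals mark GAGGAA, the core bound by the myeloid factor PU.1, or TGANTCA, an AP-1 site, both searched on both strands after the expression values were known. GAGGAA was in 23.3% of all 32851 windows and in 5 of the 8 member windows, and TGANTCA was in 6.75% and in 2. *Spp1* had a second start site, whose window held neither motif and is not printed. The first window lies before *Spp1* at chr5:104434861-104435110 (plus strand), the second before *Cd68* at chr11:69666171-69666420 (minus strand) and the third before *P2ry12* at chr3:59262986-59263235 (minus strand). 
Spp1: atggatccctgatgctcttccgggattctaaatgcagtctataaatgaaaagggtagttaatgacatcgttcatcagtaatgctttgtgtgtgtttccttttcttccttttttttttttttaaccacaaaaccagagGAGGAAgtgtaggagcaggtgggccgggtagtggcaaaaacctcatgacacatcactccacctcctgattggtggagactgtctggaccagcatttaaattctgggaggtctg
Cd68: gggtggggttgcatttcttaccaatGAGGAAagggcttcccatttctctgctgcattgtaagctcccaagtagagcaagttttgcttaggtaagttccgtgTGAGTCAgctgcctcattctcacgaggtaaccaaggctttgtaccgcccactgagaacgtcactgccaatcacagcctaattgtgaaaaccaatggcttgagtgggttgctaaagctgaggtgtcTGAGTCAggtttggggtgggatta
P2ry12: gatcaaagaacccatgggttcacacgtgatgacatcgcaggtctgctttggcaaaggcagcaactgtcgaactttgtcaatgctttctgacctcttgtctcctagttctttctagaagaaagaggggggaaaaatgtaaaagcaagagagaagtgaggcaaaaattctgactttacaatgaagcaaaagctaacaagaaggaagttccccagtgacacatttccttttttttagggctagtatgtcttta

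The *Spp1* window shown held 1 GAGGAA and no TGANTCA, and the *Cd68* window held 1 GAGGAA and 2 TGANTCA. The *P2ry12* window held neither motif in these letters. The probes themselves lay elsewhere, and their positions are given by the array files on mm7. The *Spp1* probe was at chr5:103631152-103631211, the *Cd68* probe at chr11:69746386-69746445 and the *P2ry12* probe at chr3:59344780-59344839. Exons and untranslated regions of that build were not analysed here.

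At 6 h after PMCAO, *Cd14* was the member with the clearest difference. Its level in sham was −2.35 in the saline pool and −1.88 in the PACAP38 pool, and in PMCAO 1.63 and 1.97. The mean difference was 3.91 ± 0.68 (SE), or 15.1-fold, with an adjusted p of 0.00492 in limma and of 0.126 in the array fit. With the arrays numbered 1 alone it was 3.23, or 9.40-fold, with an adjusted p of 0.0558. All 4 same-dye differences were positive and lay between 3.13 and 4.63.

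*Cd68* and *Tyrobp* were also called higher at 6 h. *Cd68* was at −1.93 and −2.19 in the sham pools and at −1.06 and −1.10 in the PMCAO pools (0.98 ± 0.11, SE, adjusted p = 0.00136 in limma and 0.287 in the array fit). *Tyrobp* was at 0.99 and 0.92 in sham and at 1.60 and 1.65 in PMCAO (0.67 ± 0.15, SE, adjusted p = 0.0130 in limma and 0.287 in the array fit). With the arrays numbered 1 alone, the difference was 0.41 for *Cd68* (adjusted p = 0.106) and 0.40 for *Tyrobp* (adjusted p = 0.212). The *Tyrobp* call was also lost without the sham saline (0.0679), the sham PACAP38 (0.0595) or the PMCAO PACAP38 pool (0.0704) of 6 h, and with scaling by the median (0.0686).

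*P2ry12* was called lower at 6 h, by −1.78 (adjusted p = 0.00208 in limma over the same 7 pools). The sham saline pool read −0.33 on its array numbered 1 and 1.86 on the array that stood apart. With the arrays numbered 1 alone the difference was −0.54 (adjusted p = 0.284). *Spp1* was at 2.69 and 2.78 in sham and at 2.59 and 2.66 in PMCAO, a difference of −0.11 ± 0.40 (SE, adjusted p = 0.821) that turned positive with quantile normalization. *Aif1* differed by 0.29 (adjusted p = 0.121 in limma and 0.0238 with the replicate block), was at 0.29 (0.305) with the arrays numbered 1 alone, and was at −0.01 after normexp and loess. Its second probe differed by −0.20 (0.402), and by −0.015 (0.963) with those arrays alone. *Trem2* and *Cx3cr1* differed by −0.14 and −0.10 (adjusted p = 0.256 and 0.501), and the sign of either depended on which arrays were used. *Cx3cr1* was at −0.66 (adjusted p = 0.0677), *Trem2* at 0.11 (0.669) and *Spp1* at 0.031 (0.969) with the arrays numbered 1 alone. With median scaling *Cx3cr1* and *Trem2* passed the threshold at −0.36 and −0.40 (0.0408 and 0.0151).

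In all, 3 lead probes were called higher and 1 lower of 8 at 6 h, where 38.1% of all probes were called higher and 26.2% lower. With the arrays numbered 1 alone, 0 of 10 were called, and 4 had an unadjusted p under 0.05, against 4.67% and 28% of all probes. Scaling by the median moved the median difference of all probes at 6 h from 0.13 to −0.13, so differences of that size at 6 h have no settled sign.

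Among the probes that were not the brightest of their gene, a *Trem2* probe was called higher at 6 h (0.84, adjusted p = 0.00179 in limma and 0.289 in the array fit) where its brighter probe was not. Its call was lost with the arrays numbered 1 alone (0.40, adjusted p = 0.138). A dim *Csf1r* probe was also called (1.64, adjusted p = 0.000417), but it was above background in 0 of 4 sham channels and 3 of 4 PMCAO channels, so it was at least 1.01-fold higher. This bound sets its PMCAO signal against the dimmest signal well above background on each sham array, or its own signal there where that was higher. The probe read 0.89 with the arrays numbered 1 alone (adjusted p = 0.0249). The middle *Csf1r* probe differed by 0.45 (0.0975), the second *Cx3cr1* probe by 0.41 (0.173) and the second *Itgam* probe by 0.36 (0.214), and with the arrays numbered 1 alone these were −0.11, 0.14 and −0.29 (0.821, 0.645 and 0.384). The lead probes of *Csf1r* and *Itgam*, outside the main fit, were at −0.29 and 0.72 on those arrays (0.348 and 0.155).

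**Figure D2:**
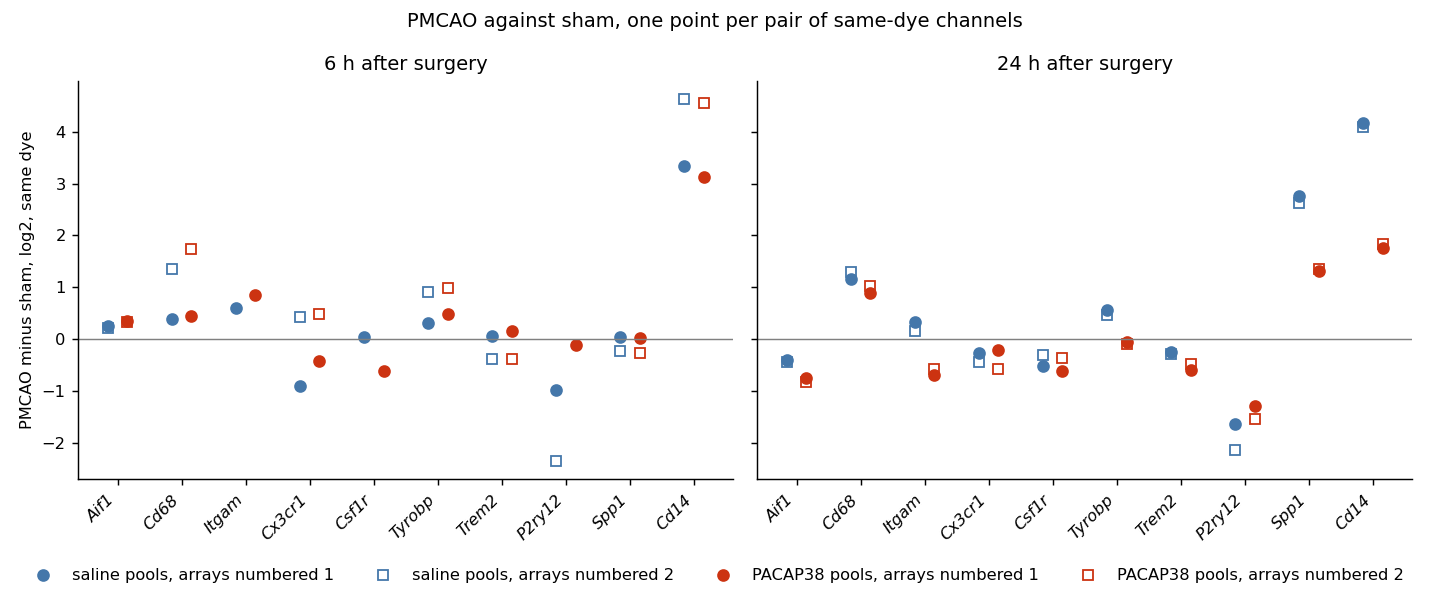
Difference of PMCAO minus sham (log2) for each pair of channels of the same dye, per lead probe, at 6 h (left) and 24 h (right); color marks saline or PACAP38 pools, and filled circles and open squares mark arrays numbered 1 and 2. At 24 h the circle and square of a color lie close together, with *Cd14* at 4.14 in the saline and 1.79 in the PACAP38 pools, whereas at 6 h the squares of *Cd68*, *Cx3cr1* and *Cd14* lie above their circles.

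Whether the difference between PMCAO and sham changed from 6 h to 24 h was tested in the same fit. *Spp1* went from −0.11 to 2.01, a change of 2.13 ± 0.57 (SE, adjusted p = 0.0306 in limma and 0.592 in the array fit). *Aif1* went from 0.29 to −0.61, a change of −0.89 ± 0.20 (SE, adjusted p = 0.0170 in limma and 0.626 in the array fit). These were 1 lead probe higher and 1 lower of 8, against 17.7% and 27.5% of all probes. Neither was called with the arrays numbered 1 alone, *Spp1* being at 2.01 (adjusted p = 0.190) and *Aif1* at −0.87 (0.181). The change of *Cd14* was −0.95 ± 0.96 (SE, adjusted p = 0.452), and those of *Cd68* and *P2ry12* were 0.11 and 0.12 (adjusted p = 0.597 and 0.727). These 3 changes were −0.27, 0.61 and −0.92 with the arrays numbered 1 alone (adjusted p = 0.916, 0.193 and 0.345). Without the PMCAO saline pool of 24 h the change was −2.23 for *Cd14* and −0.70 for *Tyrobp*, with 1 pool left in that group and no spread of its own. With all pools *Tyrobp* changed by −0.46 (adjusted p = 0.140 in limma, 0.626 in the array fit and 0.0458 with the replicate block). The *Spp1* call was lost without any 6 h pool or any sham pool of 24 h (adjusted p = 0.0512 to 0.101). The *Aif1* call was lost without the sham PACAP38 pool of 6 h (0.0544) or 24 h (0.0572), the PMCAO saline pool of 6 h (0.0562) or the PMCAO PACAP38 pool of 24 h (0.0510).

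The second question was whether PACAP38 changed the markers. Within each surgery and time the PACAP38 pool was set against the saline pool on the same array, and the mean log2 ratio of the 2 arrays was used. With 1 pool per group there is no test, and a probe was called upregulated above 1.5-fold and downregulated below 0.75-fold. Across all probes the 2 arrays of a comparison had a correlation of −0.148 (sham) and −0.140 (PMCAO) at 6 h, and of −0.417 (sham) and 0.053 (PMCAO) at 24 h. The sign of a ratio that is not large on both arrays is therefore uncertain.

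In the ischemic hemisphere at 24 h, 4 of the 10 lead probes were downregulated with PACAP38 and 0 upregulated, where 8.18% and 2.99% of all probes were. On the array with PACAP38 in Cy5 the log2 ratio of *Cd14* was −2.32, and on the array with PACAP38 in Cy3 it was −2.18, a mean of 0.211-fold. *Spp1* gave −1.38 and −1.56, a mean of 0.361-fold. *Itgam* gave −0.68 and −0.67, a mean of 0.628-fold, and its second probe gave −0.39 and −1.0. *Cd14*, *Spp1* and *Itgam* were thus past the threshold on both arrays, as were 3.75% of all probes.

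*Tyrobp* gave −0.30 and −0.56, a mean of 0.743-fold, and was past the threshold on 1 of its arrays. The largest ratio in the other direction was that of *P2ry12*, with 0.67 and 0.24, a mean of 1.37-fold that was not called. In all, 9 of the 10 lead probes had a mean ratio below 1, where the median log2 ratio of all probes was 0. Lower on both arrays were 7 of the 10, as were 22.4% of all tested probes. The median log2 ratio of the lead probes was −0.18, against 0.04 for all tested probes. *Aif1*, *Cd68*, *Cx3cr1*, *Csf1r* and *Trem2* lay between −0.20 and −0.05 in the mean.

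The 4 lead probes downregulated in PMCAO at 24 h differed less with PACAP38 in the other comparisons that had a mean ratio. Other members differed more elsewhere. In sham at 6 h *Aif1*, *Cd68* and *Cx3cr1* were at −0.25, −0.27 and −0.43, and in PMCAO at 6 h *Csf1r* was at −0.36. In sham at 24 h, 0 of 10 lead probes were called, with means of −0.12 for *Spp1* and 0.08 for *Cd14*. In PMCAO at 6 h, 0 of 10 were called, with 0.07 for *Spp1* and 0.34 for *Cd14*. Of the other probes, the middle probe of *Csf1r* (−0.81 and −0.38) and the second of *Cx3cr1* (−0.44 and −0.79) were downregulated there, at 0.663-fold and 0.653-fold, where the lead probe of *Cx3cr1* was at 0.897-fold. In sham at 6 h, 1 of 7 with a value on both arrays was downregulated, *Cx3cr1* at 0.741-fold (−0.33 and −0.53), and the second probe of *Aif1* was at 0.744-fold. Of all probes, 7.48% were downregulated and 3.98% upregulated in sham at 6 h. These shares were 6.90% and 5.41% after PMCAO at 6 h, and 3.87% and 1.75% in sham at 24 h.

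**Figure D3:**
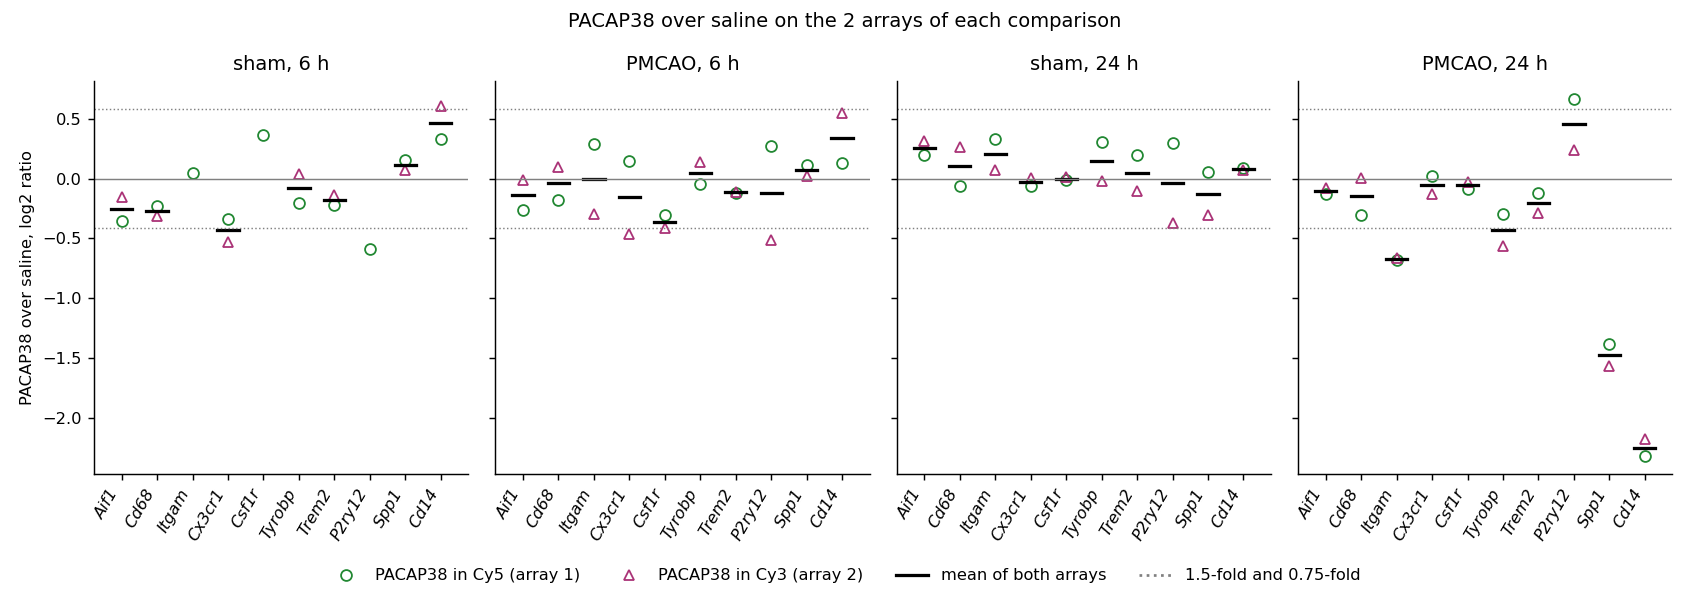
Log2 ratio of PACAP38 over saline of each lead probe in the 4 comparisons, with the array that has PACAP38 in Cy5 (circle), the array that has it in Cy3 (triangle) and their mean (bar); dotted lines mark 1.5-fold and 0.75-fold. In PMCAO at 24 h *Cd14* and *Spp1* lie far below the lower line on both arrays, and in the other comparisons the bar of *Cx3cr1* in sham at 6 h alone lies past a line.

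Over the 4 pairs of pools, taken as replicates, limma gave 0 called probes among all 36121 for the mean ratio (4.93% with an unadjusted p under 0.05). It also gave 0 for its difference between times and 0 for its difference between surgeries, with 5.22% and 6.47% at an unadjusted p under 0.05. The lowest adjusted p of the 13 member probes was 0.871 for the mean, 0.879 for the times and 0.778 for the surgeries. *Cd14* and *Spp1* were past the fold thresholds in 1 of the 4 pairs, a pattern that none of these terms isolates. In the other pairs *Cd14* was higher with PACAP38 on both arrays, most in sham at 6 h (0.33 and 0.60, a mean of 1.38-fold).

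The members were then set beside other gene lists, which are described by counts and medians over tested probes. At 24 h, 5 of 16 probes of homeostatic microglia genes were called lower and 0 higher, with a median of −0.74. The lowest was *Siglech*, a lectin of resting microglia, at 0.303-fold (adjusted p = 0.0129 in limma and 0.0871 in the array fit). It was followed by the sugar transporter gene *Slc2a5* at 0.339-fold (0.00909 and 0.139) and the receptor gene *Gpr34* at 0.343-fold (0.0203 and 0.350). *P2ry13*, a receptor related to P2ry12, was called as well (−0.79, adjusted p = 0.0437 in limma and 0.426 in the array fit), and *Tmem119* was not (−0.65, adjusted p = 0.101). *Cst3*, which encodes the protease inhibitor cystatin C, was at 0.12 and was not called. The summed signal of 14 homeostatic probes was 59.5 and 61.8 in sham and 59.5 and 61.5 in PMCAO, in units of the 75th percentile. In this sum of unlogged signals the bright probes weigh most. Of the 14 lead probes with a difference at 24 h, 11 lay below 0 and 3 above.

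Genes of activated or phagocytic microglia went up in 5 of 23 probes and down in 0, with a median of 0.43. The chemokine genes *Ccl4* and *Ccl3* were 27.1-fold and 19.1-fold higher (adjusted p = 0.0240 and 0.0395 in limma, 0.0252 and 0.0871 in the array fit). *Lgals3*, which encodes galectin-3, was 5.97-fold higher (0.0214 and 0.0591). *Apoe* (0.03), *Ctsb* (0.13) and *Igf1* (−0.14) were not called. With PACAP38 in PMCAO at 24 h, 10 of the 23 were downregulated and 0 upregulated, with *Ccl4* at −1.96 and −1.82 on the 2 arrays. Of all tested probes, 7.64% were downregulated and 2.27% upregulated in that comparison.

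Some genes of blood monocytes, border macrophages and neutrophils moved at the same time. Of 20 probes of monocyte and macrophage genes, 8 were called higher and 1 lower (median 0.71), among them *Chil3* at 21.6-fold (adjusted p = 0.0249 in limma and 0.0127 in the array fit). *Arg1* and *F10* were above background in 0 of 4 sham channels of 24 h and in 4 of 4 of PMCAO, so they were at least 2.28-fold and at least 1.53-fold higher (adjusted p = 0.0161 and 0.0252 in limma, 0.0232 and 0.0494 in the array fit). *Ccr2*, a defining marker of blood monocytes, was at 0.63 (adjusted p = 0.468). Of 10 probes of border macrophages 4 were called higher, among them *Lyve1* (2.56-fold), *Cd163* (2.11-fold) and *F13a1* (1.78-fold), with adjusted p-values of 0.614, 0.329 and 0.615 in the array fit.

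Neutrophil genes had the largest median, 2.58 over 13 probes, of which 3 were called higher in limma and 5 in the array fit. *Csf3r*, *Mpo* and *Ltf* differed by 0.45, 0.30 and 0.18 and were not called (adjusted p = 0.140, 0.0895 and 0.829 in limma). *Lcn2* was 19.6-fold higher (adjusted p = 0.0169 and 0.0142). *Fpr1*, above background in 2 of 4 sham channels, was 5.97-fold higher (0.0491 and 0.765), and *Cxcr2*, above background in 0 of 4 sham channels, at least 1.44-fold (0.0481 and 0.111), while *S100a8* and *S100a9* differed by 4.36 and 4.26 and were called in the array fit alone (0.0127 for either, against 0.0559 and 0.0605 in limma). Their summed signal, in units of the 75th percentile, was 0.963 and 1.36 in the saline and PACAP38 pools of sham and 52.9 and 6.74 in those of PMCAO. With PACAP38, 12 of the 13 were downregulated in PMCAO at 24 h (median −1.84). *Camp* and *Elane* were above background in 0 of 16 channels. The same 2 pools thus differed in neutrophil genes, in *Cd14* and in *Spp1*, and the part of the neutrophil signal in the marker values was not tested.

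**Figure D4:**
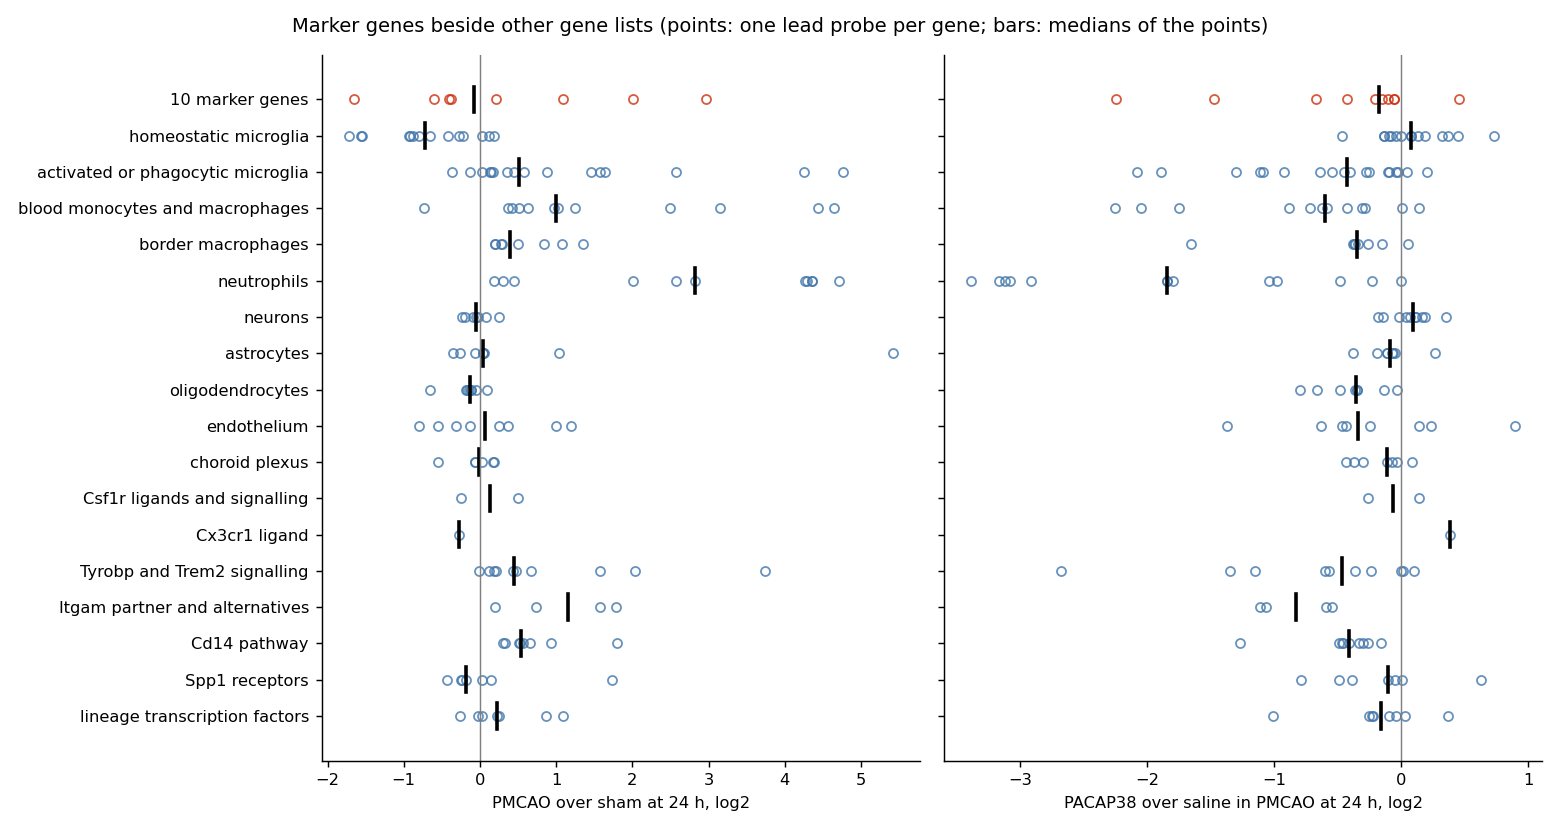
Lead probes of the marker genes (red) and of 17 other gene lists (blue) as the log2 difference of PMCAO over sham at 24 h (left) and the log2 ratio of PACAP38 over saline in PMCAO at 24 h (right), with 1 lead probe per gene and a bar at the median of the points. Most neutrophil, monocyte and activated microglia genes (11 of 11, 11 of 12 and 14 of 16) lie to the right of 0 on the left, and most (12 of 13, 10 of 12 and 16 of 18) to the left of 0 on the right, homeostatic microglia genes lie mostly below 0 on the left, and the single astrocyte point at 5.42 is *Aldh1l1*, which rests on 1 sham array.

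Lists of other brain cells were counted in the same way at 24 h after PMCAO. Of 20 neuronal probes 0 were called at 24 h (lowest adjusted p over the lead probes 0.204, median −0.07), and of 9 choroid plexus probes 0 (median 0.14). Of 15 oligodendrocyte probes 1 was called higher, and of 13 endothelial probes 1 lower. With PACAP38 in PMCAO at 24 h, 6 of the 13 endothelial and 4 of the 15 oligodendrocyte probes were downregulated (median −0.34 in either list), against 0 of 20 neuronal and 1 of 17 astrocyte probes. Of 17 astrocyte probes 4 were called higher, with *Gfap* at 2.05-fold (adjusted p = 0.0415 in limma and 0.365 in the array fit). *Aldh1l1* was called at 5.42, but its signal was −8.13 and −7.82 on 1 sham array of 24 h and 2.02 to 2.86 in the other 14 channels, and the difference on the arrays numbered 2 was 0.10. The members showed no such gap at 24 h, where both channels of a pool differed by at most 0.588.

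Partners of the members were counted from lists of ligands, receptors and signalling proteins. The Csf1r ligands *Csf1* (0.50, adjusted p = 0.0756) and *Il34* (−0.24, adjusted p = 0.176) and the Cx3cr1 ligand *Cx3cl1* (−0.27, adjusted p = 0.199) were not called at 24 h. Of 16 probes of Tyrobp and Trem2 signalling 2 were called higher, among them *Trem1*, a myeloid receptor that uses the same adaptor (adjusted p = 0.0464 in limma and 0.0349 in the array fit). It is also a neutrophil gene, was above background in 0 of 4 sham and 3 of 4 PMCAO channels of 24 h, which makes it at least 1.48-fold higher, and gave −2.52 and −2.84 with PACAP38.

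For *Itgam*, the partner chain *Itgb2* differed by 0.73 (adjusted p = 0.0686), and the ligand *Icam1* was called at 3.45-fold (0.0491 in limma and 0.0811 in the array fit). With PACAP38, 6 of 7 probes of this list were downregulated. In the Cd14 pathway 3 of 10 probes were called higher, the adaptors *Myd88* (1.90-fold, adjusted p = 0.0385) and *Ticam1* (1.43-fold, 0.0485) and the carrier *Lbp* (1.58-fold, 0.0410), each with 0.328 or more in the array fit. *Tlr4* and *Tlr2* differed by 0.51 and 1.79 and were not called (0.132 and 0.0514).

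All 10 probes of the Cd14 pathway were lower with PACAP38 on both arrays in PMCAO at 24 h, as were 22.4% of all tested probes. Of the Spp1 receptors 2 of 14 probes were higher and 1 lower, with *Cd44* at 3.33-fold (adjusted p = 0.0396) and *Itga9* at 0.740-fold (0.0465). Among 11 probes of lineage transcription factors 3 were higher, with *Cebpa* at 1.82-fold (0.0394 in limma and 0.413 in the array fit), while *Irf8* (0.22) and *Runx1* (−0.03) were not called. *Spi1*, which encodes PU.1, was above background in 3 of 16 channels and was not tested.

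Genes that followed the pattern of *Spp1* and *P2ry12*, the members that rose and fell most among those called at 24 h, were found by the correlation of pool levels centred within each time. Over 8 pools and 16070 probes *Spp1* was most like *Trim47* (r = 0.994), *S100a4* (0.993), *Shc1* (0.992), *Derl3* (0.991) and *Mcemp1* (0.988). Over 7 pools and 18039 probes *P2ry12* was most like *Nat8f5* (0.999), *Pde7b* (0.998), *Entpd5* (0.998), *Zfp710* (0.998) and *Klhl29* (0.997). These values are descriptions, since the pools share arrays and the probes were picked from many, and for *P2ry12* they include the sham pool of 6 h from the array that stood apart.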

How the data were processed

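The authors hybridized Agilent 4x44K mouse arrays and deposited the scanner output of Feature Extraction, whose version is 9.5.1.1 in the headers of 6 h and 9.5.3.1 in those of 24 h. The deposited intensity columns hold each channel's mean, background and processed signal, the last after background subtraction, detrending and dye normalization. The deposited log10 ratio is Cy5 over Cy3 of the processed signals. The deposited flags (values 0 and 1) mark outlier, saturated and well-above-background spots. A second table of the authors holds the same processed ratio, as a score with a minus sign where PACAP38 was in Cy3; it was used as an alternative.

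Here, controls and marked outlier spots were removed and spots of 1 probe averaged. Processed signals were scaled to each channel's 75th percentile, and a pool was the mean of its Cy3 and Cy5 channel. Probes entered the fit if well above background in both channels of at least 1 pool, and a pool with a marked spot had no value for that probe. PMCAO and sham were compared with limma 3.58.1 (R 4.3.3; surgery within time plus PACAP38, 3 residual degrees of freedom) with Benjamini-Hochberg adjustment over all probes, and the fits were tested on simulated data. The log10 ratios were put on the log2 scale, with PACAP38 as the numerator on every array. Probes were named through RefSeq accessions for 22951 and by the files for 11480 of 41174, and 6743 had no symbol. The number of arrays limits the precision. p-values measure the spread between pools or hybridizations, not between mice.

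The members, lists and comparisons were chosen with earlier results of these data known, and the fits with arrays as the unit, single arrays or 1 time point were added after the data were seen. Named genes were all members, for each list the 3 called genes with the largest difference at 24 h, and the 5 probes most like the called members that rose and fell most. Other list genes in the text were named after their values were seen. Alternatives were median, quantile and normexp (offset 50) scaling, marked spots kept, no filter, no PACAP38 term, each dye, each array or pool left out, and the deposited ratios. Python 3.11.15, numpy 2.4.6, pandas 2.3.3 and matplotlib 3.10.9 made tables and figures.

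The array numbers of the labels mark dye orientation and do not pair separate mice. The deviations of same-numbered arrays from the mean of their comparison correlated by 0.233 to 0.648, so the number also served as a replicate block in a fit over channels. The 2 channels of an array had a consensus correlation of 0.738, the 2 channels of a pool one of −0.614.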

Additional observations from a re-analysis of the deposited data

Results flagged for a closer look

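The response to PMCAO differed between the time points by a test of that difference in limma for 4 probes of the marker genes. These were 1 higher and 3 lower of the 14 member probes tested, against 17.7% and 27.5% of all probes. The *Csf1r* probe among them was at background in sham at 6 h, so that its value is not a measured size. The difference between PMCAO and sham at 24 h minus that at 6 h was 2.13 on the log2 scale for *Spp1* (adjusted p = 0.0306) and −0.89 for the lead probe of *Aif1* (adjusted p = 0.0170). It was −1.75 for a dim probe of *Csf1r* (adjusted p = 0.00199) and −1.12 for the less bright probe of *Trem2* (adjusted p = 0.00472). In the array fit the adjusted p was 0.592 for *Spp1* and 0.626 for each of the other probes.

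The ratio of PACAP38 over saline went in opposite directions on all arrays of a pair of comparisons for 10 of the 16 member probes, from 7 genes. These differences were not tested. The share of all probes that did so was not counted, so the number is not a trait of the markers. For *Cd14* the mean log2 ratio in PMCAO at 24 h differed from that in PMCAO at 6 h by −2.58 and from that in sham at 24 h by −2.33. For *Spp1* the ratio in PMCAO at 24 h differed from that at 6 h by −1.54. For *Itgam* the ratio in PMCAO at 24 h differed from that in sham at 24 h by −0.87. It did so by −0.97 for the second *Itgam* probe, −0.36 for the lead probe of *Aif1*, −0.22 for the dim *Csf1r* probe and −0.20 for the second *Trem2* probe. In PMCAO against sham at 6 h the ratios differed by −0.84 for the second *Cx3cr1* probe and −0.82 for the middle *Csf1r* probe. In sham the ratios at 24 h and 6 h differed by 0.51 and 0.73 for the lead and the second *Aif1* probe and by 0.12 for the second *Trem2* probe. No group held enough samples to look for single outlying samples within it.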

How the results depend on the processing

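The number of probes called between PMCAO and sham depended on how pools, dyes and arrays were treated. At 6 h it was 18153 in the fit over pools. It fell to 0 with either dye alone or with the array as the unit, to 77 with the array as a random block and to 1377 with the arrays numbered 1 alone. At 24 h it was 1941, and became 1087 with quantile normalization, 4611 with normexp and loess, 1223 without the filter on dim probes and 993 with the percentile taken over unmarked spots. It was 372 or 1177 with the arrays numbered 1 or 2 alone, 39 with the 24 h pools alone, 75 with the array as the unit, 18 with the array as a random block and 0 with either dye alone. For the change from 6 h to 24 h it was 12774, and became 204 with the arrays numbered 1 alone, 1 with the array as a random block and 0 with the array as the unit or with either dye. Leaving out each pool in turn gave 12098 to 17846 at 6 h, 94 to 1987 at 24 h and 6126 to 12058 for the change, where the group left with 1 pool was assumed to vary like the others. The share of calls that were higher was 59.3% at 6 h and 40.9% with median scaling, 48.2% with normexp and loess and 43.6% with the percentile over unmarked spots. It was 60.9% at 24 h and 44.5% and 39.6% with the first 2 of these. For the change it was 39.2%, and 56.4%, 49.7% and 57.2% with the 3 in turn. Fits over single dyes, arrays or time points hold fewer measurements, and otherwise the cause of these changes was not tested.

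The array numbers mark dye orientation, not mice. A fit over channels with the number as a replicate block and the pool as a random block called 17652 probes at 6 h, 4904 at 24 h and 13218 for the change. Among the lead probes it added *Aif1* (adjusted p = 0.00166), *Trem2* (0.00555) and *Cd14* (0.00140) at 24 h, *Aif1* at 6 h (0.0238) and *Tyrobp* in the change (0.0458), and the calls of the other lead probes it could fit stayed on their side of the threshold. *P2ry12* had no value in it.

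The number of probes past the fold thresholds with PACAP38 changed too. In sham at 6 h 4203 became 6445 to 6896 on a single array, 40 with normexp and loess, 1029 among probes well above background and 671 on both arrays. In PMCAO at 6 h 4897 became 6929 to 9682, 109, 2540 and 1103 in the same order. In sham at 24 h 2313 became 5844 to 6630, 77, 465 and 460, and 1439 with 1.5-fold as the limit either way. In PMCAO at 24 h 4598 became 6901 to 8088, 1216, 2392 and 1882. With normexp and loess the share of these calls that were upregulated was 32.1% against 44.0% in PMCAO at 6 h, 9.09% against 31.1% in sham at 24 h and 4.61% against 26.8% in PMCAO at 24 h. Tests over the 4 pairs of pools called 0 probes with each alternative, the replicate block included.

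Some differences of lead probes that had not passed the test turned their sign. At 6 h *Aif1* was at −0.013 and *Trem2* at 0.15 with normexp and loess, *Trem2* at 0.11 and *Spp1* at 0.031 with the arrays numbered 1 alone, *Spp1* at 0.050 with quantile normalization and 0.069 with normexp and loess, and *Cx3cr1* at 0.0092 with Cy5 alone and 0.46 with the arrays numbered 2. For the change, *Cd68* was at −0.39 with the arrays numbered 2 and *Cx3cr1* at 0.41 with those numbered 1, and *P2ry12* was at −0.15 with marked spots kept, −0.62 with Cy3, −0.48 with Cy5 and −0.92 with the arrays numbered 1. Leaving out 1 pool gave ranges of −0.27 to 0.072 (*Cx3cr1*, 6 h), −0.42 to 0.19 (*Spp1*, 6 h), −0.028 to 0.45 (*Tyrobp*, 24 h), and for the change −0.019 to 0.24 (*Cd68*), −0.22 to 0.33 (*P2ry12*) and −2.23 to 0.33 (*Cd14*). Calls gained at 24 h were those of *Cd14* with normexp and loess (adjusted p = 0.0377) or without a PACAP38 term (0.0417), *Aif1* with median scaling (0.0486), normexp and loess (0.0220) or without that term (0.0403), and *Trem2* with median scaling (0.0492) or normexp and loess (0.0334). At 6 h *Trem2* (0.0151) and *Cx3cr1* (0.0408) passed with median scaling, and with the arrays numbered 2 so did *Trem2* (0.0234) and, with its sign turned, *Cx3cr1* (0.0445). The change gained *Cd68* (0.0198) and *Trem2* (0.00937) with normexp and loess, and *Cx3cr1* (0.0144) with the arrays numbered 2. The PACAP38 ratios of members past the fold thresholds kept their sign under the alternatives run, and smaller ones turned it between the arrays. Signal at background limited a *Csf1r* probe and several neutrophil and monocyte probes.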
